A study of Danio rerio with 93 samples.

Results

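Disperse Blue 14, Disperse Red 9 and Solvent Red 169 are smoke dyes built on anthraquinone, a flat system of fused rings, and each carries alkylamino groups on it. Disperse Red 9 has a methylamino group, Solvent Red 169 has an isopropylamino group instead, and Disperse Blue 14 has a pair of methylamino groups. The question was which genes changed step by step as the concentration of a dye rose, and whether such trends were shared by the 3 dyes or ran in opposite directions. All exposed embryos of these dyes were taken by their labels, which gave 45 of the 93 embryos of the series. The 12 controls of the same dyes gave background levels. They also took part in the scaling of the libraries and in an alternative fit. The series holds 5 dyes in all.

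Embryos of the SPF 5-D zebrafish line were placed singly in wells without their chorions, exposed to a dye from early development and taken as whole embryos at 48 hpf. Messenger RNA was selected by its poly-A tail and sequenced. Disperse Blue 14 was given at 133, 171, 209, 261.5 and 314 μM and Disperse Red 9 at 10, 25, 35, 45 and 55 μM. Solvent Red 169 was given at 1 and 5 μM, at 11.2 μM and at 35.6 and 50 μM, and every concentration had 3 embryos. Each dye had 4 vehicle controls, and the vehicle was 0.64% DMSO. The concentrations of Disperse Blue 14 overlap with neither of the other series, so its levels are given beside theirs and are not compared at matched doses.

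The aryl hydrocarbon receptor (AhR) is a transcription factor that is switched on when flat aromatic compounds bind it. It then pairs with its partner Arnt and turns on genes of cytochrome P450 family 1 (CYP1), whose enzymes oxidize such compounds, and in zebrafish embryos the rise of the CYP1A transcript is a common sign of exposure to them. A second group of genes that recurs below belongs to the eye. In photoreceptors a light-activated opsin switches on the G protein transducin, recoverin sets how long the signal lasts, and the discs that hold the opsin are shaped by peripherins. At 48 hpf the zebrafish retina is just starting to form photoreceptors, and the head skeleton is just starting to form cartilage.

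A trend was the slope of log2 expression per step of concentration, with the 5 concentrations of a dye ranked from 1 to 5 and no controls in the fit. Levels are CPM, counts scaled to the total of the library after correction by its normalization factor (TMM), and they are compared only within a gene. The total estimated count per embryo ran from 24270890 to 48187940 with a median of 34358702 over the 57 embryos. Of 41 cell type markers in 10 lists, 32 were found by name, and every list had at least 1 gene at 1 CPM or more in the embryos of each dye.

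Several libraries stood apart from their group. Of the 12 controls, 5 held CYP1A1 at 45.8 to 1350 CPM and the other 7 at 3.42 to 6.5 CPM. In 3 of these 5 controls, embryo 1 of Disperse Blue 14 and embryos 1 and 2 of Solvent Red 169, recoverin (rcvrna) was at 2.72, 1.73 and 1.73 CPM against 9.64 to 29.8 CPM in the other controls of these dyes. No control entered a trend, except in the alternative fit with controls as a step below the lowest concentration. Among exposed embryos, embryo 2 at 10 μM Disperse Red 9 lay near the controls in many genes. Values without it are given for a part of the genes named below. The libraries also differed in the second index of their barcode. For Disperse Red 9 the controls and the 10 and 25 μM embryos carried one second index and the 35, 45 and 55 μM embryos another, so the index and the concentration cannot be told apart there. For Disperse Blue 14 and Solvent Red 169 the same index was carried by 12 of the 15 exposed embryos, and the others were 1 embryo at the lowest and 2 embryos at the highest concentration. That common index was carried by 0 of the 4 controls of each of these dyes. Differences between controls and most exposed embryos therefore cannot be told apart from the index there either.

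CYP1A1 (ENSDARG00000098315), the main CYP1 enzyme of the embryo, was the only gene with a called trend in the dyes' own fits, and it rose with Solvent Red 169. It was measured at 2.91, 3.94 and 5.13 CPM at 1 μM. It was at 5.1, 5.08 and 7 CPM at 5 μM, and at 8.18, 11.2 and 12.4 CPM at 11.2 μM. At 35.6 μM the embryos held 15.8, 22.6 and 27.4 CPM, and at 50 μM they held 24.9, 27.4 and 36.3 CPM. The embryos at 11.2 μM and above were all higher than every embryo at 1 and 5 μM. The mean at 50 μM was 7.39-fold that at 1 μM (29.5 against 3.99 CPM, n = 3 each). The slope was 0.78 log2 per step (95% interval 0.66 to 0.89, adjusted p = 6.79e-07, edgeR's quasi-likelihood test with Benjamini-Hochberg adjustment), and it was positive with each of the 15 embryos left out.

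The call in Solvent Red 169 was 1 of 18127 genes tested, or 0.00552%. At an unadjusted p under 0.05 the test gave 1467 genes for Solvent Red 169, or 8.09%, with 3.52% rising and 4.57% falling. The lowest concentrations of Solvent Red 169 were at the level of the low controls, which held 4.69 and 3.42 CPM of CYP1A1, while the other controls of the dye held 168 and 194 CPM. With the 4 controls added to the fit as a step below 1 μM the slope of CYP1A1 was -0.29 (adjusted p = 0.316).

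In Disperse Red 9 the lowest concentration was 10 μM, and the CYP1A1 transcript was on average at 14.8 CPM there. It was at 4.95, 21.2 and 18.1 CPM at 10 μM and at 17.7, 33.5 and 25.4 CPM at 25 μM. At 35 μM it was at 17.7, 27.7 and 19.1 CPM, at 45 μM at 22.6, 35.7 and 38.3 CPM, and at 55 μM at 25.9, 30.9 and 68.6 CPM. The 4 controls held 50.8, 45.8, 5.46 and 4.97 CPM. The ranges of neighbouring concentrations overlapped, and 2 of the controls lay above every exposed embryo but the one at 68.6 CPM. The mean at 55 μM was 2.82-fold that at 10 μM (41.8 against 14.8 CPM), and the slope was 0.33 (95% interval 0.11 to 0.54). This slope did not pass the adjustment over all genes in the dye's own edgeR fit (adjusted p = 0.717) and passed in the fit of the 3 dyes together (adjusted p = 0.0474). Without embryo 2 at 10 μM the slope was 0.25 and the adjusted p in that joint edgeR fit was 0.215.

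In Disperse Blue 14 CYP1A1 was already high at the lowest concentration. It was at 68.4, 67.4 and 51.3 CPM at 133 μM, at 86.9, 115 and 72 CPM at 171 μM, and at 84.5, 107 and 63 CPM at 209 μM. At 261.5 μM it was at 130, 79.3 and 107 CPM, and at 314 μM at 81.6, 95.2 and 75.2 CPM. Every exposed embryo lay at least at 51.3 CPM, above the 3 low controls of this dye at 4.62 to 6.5 CPM and below the fourth control at 1350 CPM. Across the series the mean went from 62.4 to 84 CPM, a ratio of 1.35, and the slope of 0.11 had a 95% interval of -0.02 to 0.23 (adjusted p = 0.845, edgeR).

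**Figure D1:**
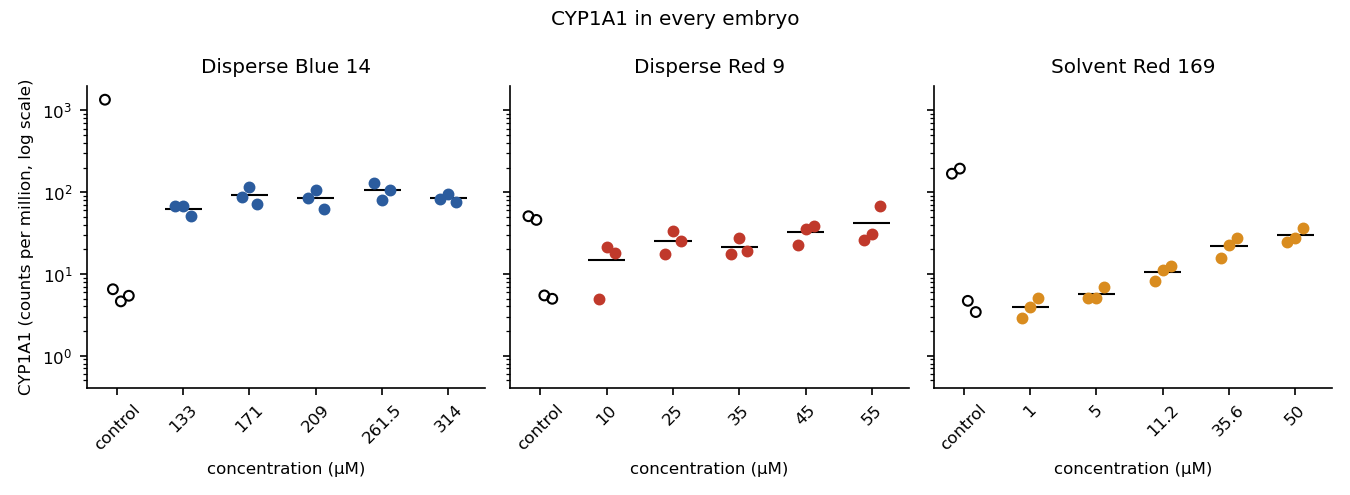
CYP1A1 in CPM on a log axis (vertical) against the nominal concentration in μM (horizontal) for each dye, where filled points are exposed embryos, open points are controls and bars are means of the exposed embryos. Solvent Red 169 runs from a mean of 3.99 to 29.5 CPM, Disperse Red 9 from 14.8 to 41.8 CPM, and Disperse Blue 14 stays between 51.3 and 130 CPM, while 5 of the 12 controls lie at 45.8 CPM or above.

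The slopes of CYP1A1 were compared between the dyes in 3 pairs, with p-values adjusted over all genes and the 3 pairs together. The slope per step was 0.67 lower in Disperse Blue 14 than in Solvent Red 169 (95% interval of the difference -0.90 to -0.43, adjusted p = 0.0207, edgeR). This was the only gene called as different in slope between these 2 dyes, or 0.00552% of the genes tested. An unadjusted p under 0.05 was reached by 636 genes (3.51%) for this pair. Disperse Red 9, which differs from Solvent Red 169 by the methyl in place of the isopropyl on its amino group, had a slope 0.45 lower (interval -0.68 to -0.22, adjusted p = 0.295, edgeR), and this difference did not pass the threshold. For Disperse Blue 14 minus Disperse Red 9 the difference was -0.22 (adjusted p = 0.753). A step is not the same in the 3 series, since Solvent Red 169 spans from 1 to 50 μM and Disperse Blue 14 from 133 to 314 μM. Per unit of log10 concentration the slopes of CYP1A1 were 1.22 in Disperse Blue 14, 1.81 in Disperse Red 9 and 1.76 in Solvent Red 169, and on that scale the difference of Disperse Blue 14 from Solvent Red 169 had an adjusted p of 0.957 in edgeR. The call of this difference was also lost without the highest or the lowest concentration (adjusted p = 0.41 and 0.11, edgeR).

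Disperse Red 9 and Solvent Red 169 shared a range of nominal concentrations. Over 10 to 55 μM Disperse Red 9 (n = 15) and 11.2 to 50 μM Solvent Red 169 (n = 9), the slopes of CYP1A1 per unit of log10 concentration were 1.81 and 2.23. Their difference of -0.421 had a 95% interval of -2 to 1.16 (adjusted p = 1, edgeR's quasi-likelihood test), so a difference of more than 1 in either direction was within the error. In this range edgeR called 0 genes as different in slope between the 2 dyes, and 436 genes had an unadjusted p under 0.05.

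Of the 17 genes measured from a list for AhR and cytochrome P450 family 1, an unadjusted p under 0.05 was reached by 6 rising and 0 falling in Solvent Red 169, against 3.52% of all genes rising. The counts were 0 and 0 in Disperse Blue 14, where 3.87% of all genes rose and 1.8% fell at that threshold, and 1 and 2 in Disperse Red 9, where 2.57% of all genes rose and 3.08% fell. The median slopes were 0.07, -0.01 and 0.006 in Disperse Blue 14, Disperse Red 9 and Solvent Red 169, beside 0.002, -0.006 and 0.006 over all genes tested. Over the whole series the median change of the list on the log2 scale went from -0.039 to 0.077 in Disperse Red 9 without embryo 2 at 10 μM, and from 0.022 to 0.213 in Solvent Red 169 without embryo 3 at 50 μM. CYP1A1 in Solvent Red 169 was the one member with an adjusted p under 0.05 in a dye's own edgeR fit.

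The CYP1C enzymes of fish, cyp1c1 and cyp1c2, lay at unlike levels in the 3 series. In Disperse Blue 14 cyp1c1 was at 139 to 317 CPM in the 15 exposed embryos, above the 3 low controls at 8.48 to 24.8 CPM. It was at 10.9 to 44.2 CPM in the exposed embryos of Disperse Red 9 and at 17.6 to 42.5 CPM in those of Solvent Red 169, ranges that held all 4 controls of Disperse Red 9. Its slope in Solvent Red 169 was 0.12 (adjusted p = 0.569, edgeR). Its mean there was 34.7 ± 6.96 CPM at 50 μM and 23 ± 1.82 CPM at 1 μM (SD, n = 3). For cyp1c2, the exposed embryos of Disperse Blue 14 held 26 to 59 CPM and its low controls 5.53 to 6.52 CPM. The exposed embryos of Disperse Red 9 held 5.52 to 8.67 CPM and those of Solvent Red 169 held 3.79 to 8.09 CPM. The slope of cyp1c2 in Solvent Red 169 was 0.10 (adjusted p = 0.573, edgeR). CYP1B1, a CYP1 enzyme that also acts on steroids and retinoids, was at 7.55 to 26.7 CPM in Disperse Blue 14, at 5.34 to 42.8 CPM in Disperse Red 9 and at 10.3 to 22.1 CPM in Solvent Red 169. None of these slopes passed the adjustment over all genes.

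**Figure D2:**
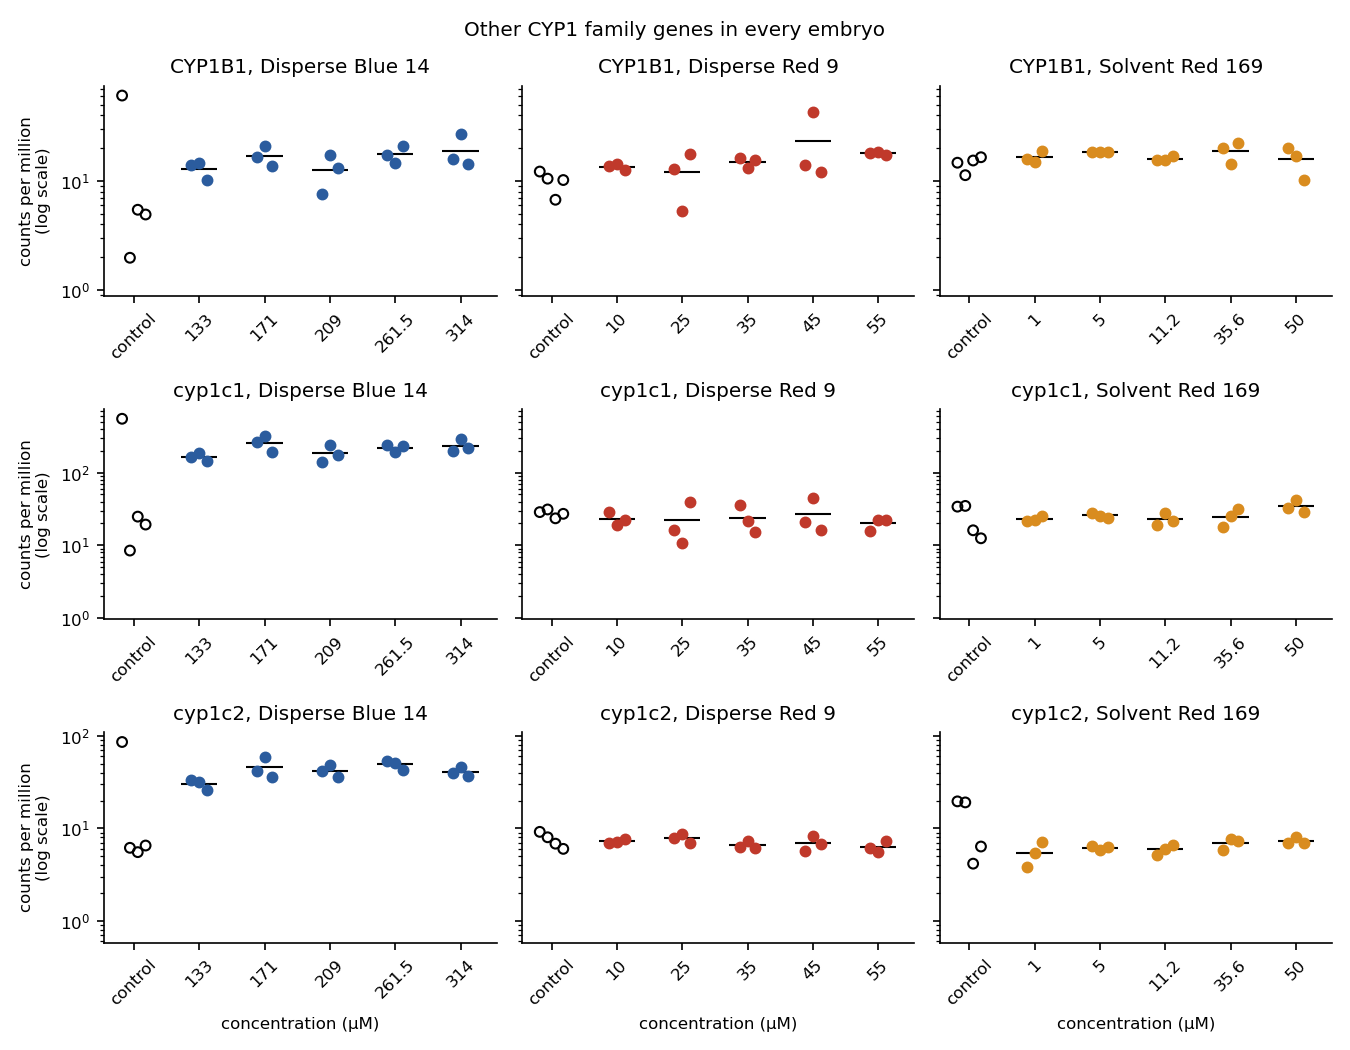
CYP1B1, cyp1c1 and cyp1c2 (rows) in CPM on log axes against the nominal concentration in μM for each dye (columns), where filled points are exposed embryos, open points are controls and bars are means of the exposed embryos. In Disperse Blue 14 cyp1c1 lies at 139 to 317 CPM at all 5 concentrations, well apart from 3 of its 4 controls, and in the other dyes it lies at 10.9 to 44.2 CPM.

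A pair of forkhead transcription factors on the AhR list leaned in opposite directions per step between the red dyes. FOXQ1 was at 2.25 ± 0.454 CPM at 1 μM and 4.49 ± 0.893 CPM at 50 μM Solvent Red 169 (SD, n = 3), with a slope of 0.21 (adjusted p = 0.498, edgeR). In Disperse Red 9 FOXQ1 was at 3.28 ± 0.619 CPM at 10 μM, 4.55 ± 1.04 CPM at 25 μM and 2.12 ± 0.271 CPM at 55 μM, with a slope of -0.23 (adjusted p = 0.74, edgeR). Its paralogue foxq1b had slopes of 0.11 in Solvent Red 169 and -0.11 in Disperse Red 9. The slopes of Disperse Red 9 were lower by 0.43 for FOXQ1 (adjusted p = 0.122, edgeR) and by 0.22 for foxq1b (adjusted p = 0.433), and neither difference passed the threshold. Over the shared range of concentrations foxq1b leaned the same way, with slopes per log10 concentration of -0.541 in Disperse Red 9 and -0.323 in Solvent Red 169. Those of FOXQ1 were -0.809 and 1.06 there. The receptor's repressor ahrrb stayed at or below 1.33 CPM in every exposed embryo, and cyp1d1, a member of the family that does not depend on AhR in zebrafish, kept a mean of 19.4 to 28.3 CPM at all concentrations of the 3 dyes.

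In Disperse Red 9 a group of genes, among them genes of the eye, fell with concentration in the fit of the 3 dyes together. In the dye's own edgeR fit 0 of 18127 genes were called, 1024 genes (5.65%) had an unadjusted p under 0.05 and the lowest adjusted p was 0.0869. On the same embryos DESeq2 called 36 genes, 12 rising and 24 falling, with COL10A1 lowest (adjusted p = 4.52e-05), and edgeR called 4 genes, all falling, per log10 concentration. The joint fit estimates the spread from all 45 embryos, and there 65 genes were called in Disperse Red 9, or 0.359%, of which 23 rose (0.127%) and 42 fell (0.232%). In the own fits the median standard error of a slope was 0.073 in Disperse Red 9, 0.056 in Disperse Blue 14 and 0.0471 in Solvent Red 169. The joint fit thus takes its spread partly from dyes that varied less. Joint p-values of Disperse Red 9 can therefore be too small. The slopes of these genes come from the same 15 embryos in both fits, so their equal signs were fixed in advance. In the dye's own fit the unadjusted p was under 0.05 for all 65. These genes were picked by low joint p-values from the same embryos, so this is not a separate check. The count in the joint fit depended on embryo 2 at 10 μM: without it the joint fit called 3 genes, all falling, which were syt5b, COL10A1 and the unnamed locus zgc:112285. With each other exposed embryo of Disperse Red 9 left out in turn the count was between 33 and 78. It was 0 in the joint edgeR fit with the second index as a term and 0 without the lowest concentration. The slopes of 64 of the 65 genes kept their sign with the index term, again in the embryos they were picked from. The genes named from this group were chosen after their values were seen.

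The gene with the lowest p was syt5b (ENSDARG00000011640), a synaptotagmin, from the family of calcium sensors of vesicle release. It was at 51.9, 56.8, 52.6 and 67.5 CPM in the 4 controls and at 49.6, 29.9 and 28.8 CPM at 10 μM. It was at 25.8, 20.1 and 18.4 CPM at 25 μM and at 19, 14.1 and 14.2 CPM at 35 μM. At 45 μM it was at 16.4, 11.9 and 15.2 CPM, and at 55 μM at 13.2, 14.6 and 12.4 CPM. All exposed embryos were below all controls. The mean at 10 μM was 2.69-fold that at 55 μM, and the slope was -0.35 (adjusted p = 0.000235 in the joint edgeR fit and 0.0147 there without embryo 2 at 10 μM). The slopes of syt5b were -0.01 in Disperse Blue 14 and 0.07 in Solvent Red 169.

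Some genes of transducin and of other photoreceptor proteins also fell in the joint fit, and others did not. GNAT2, the alpha subunit of cone transducin, had a slope of -0.02 in the own edgeR fit of Disperse Red 9 (unadjusted p = 0.746). GNB3, the beta subunit of cone transducin, was at 86.5 to 135 CPM in the controls and at 101, 33.1 and 38 CPM at 10 μM. It was at 36.9, 30 and 22.7 CPM at 25 μM, at 28.6, 12.7 and 13.8 CPM at 35 μM, at 17.2, 11.4 and 22 CPM at 45 μM and at 17.5, 21.8 and 12 CPM at 55 μM. Apart from embryo 2 at 10 μM, every exposed embryo was below the lowest control. The slope of GNB3 was -0.43 (joint adjusted p = 0.00311, edgeR) and was -0.29 (0.21) without that embryo. GNAT1, the alpha subunit of rod transducin, went from 5.18, 3.88 and 3.66 CPM at 10 μM to 2.05, 1.32 and 1.83 CPM at 55 μM, with a slope of -0.28 (joint adjusted p = 0.0199) and controls at 3.75 to 5.37 CPM. The recoverin gene rcvrna went from 15.9, 10.2 and 8.06 CPM at 10 μM to 6.15, 5.77 and 4.68 CPM at 55 μM, with a slope of -0.24 (joint adjusted p = 0.00827) and controls at 9.36 to 13.5 CPM. Without embryo 2 at 10 μM neither was called, with slopes of -0.236 for GNAT1 and -0.165 for rcvrna (joint adjusted p = 0.21 for each, edgeR). In a whole embryo, fewer cells of a type and less RNA in each of them cannot be told apart.

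Other genes of the eye among the 42 falling ones were rs1a, a retinoschisin that holds the layers of the retina together (slope -0.58, joint adjusted p = 0.00311, edgeR), and prph2lb, a peripherin of the photoreceptor discs (-0.54, 0.0393). The genes named PRPH2 had slopes of -0.20 and -0.06 in the dye's own edgeR fit (unadjusted p = 0.305 and 0.542). VSX1, a transcription factor of bipolar cells, had a slope of -0.17 (joint adjusted p = 0.0295), GNG13, a G protein gamma subunit of the same cells, one of -0.26 (0.00453), and RDH8, the dehydrogenase that reduces the spent chromophore of photoreceptors, one of -0.38 (0.0073). The lens gene crygm2d11, a gamma crystallin, was at 23.2 to 46.3 CPM in the controls. It was at 19.7, 4.12 and 3.24 CPM at 10 μM, at 3.15, 3.51 and 0.65 CPM at 25 μM, and at 1.01, 1.72 and 0.79 CPM at 55 μM (slope -0.75, joint adjusted p = 0.000311). The list of 30 lens genes, which did not hold crygm2d11, had 30 negative slopes in Disperse Red 9. Of these, 1 had an unadjusted p under 0.05 (3.33%, beside 3.08% of all genes) and 0 were called in the joint edgeR fit. Genes of the synapse were also among the falling ones, with SNAP25, a protein of vesicle fusion, at -0.18 and the synaptic vesicle protein SYN2 at -0.15. Without embryo 2 at 10 μM no gene named in this paragraph was called in the joint edgeR fit. The slopes were then -0.353 for rs1a, -0.499 for prph2lb and -0.449 for crygm2d11 (joint adjusted p = 0.223, 0.21 and 0.0673).

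A pair of collagen genes known from cartilage, COL10A1 and COL9A1, fell in the joint fit. COL10A1, type X collagen (ENSDARG00000054753), was at 106, 113, 131 and 172 CPM in the controls and at 144, 104 and 100 CPM at 10 μM. It was at 70.2, 88 and 73 CPM at 25 μM, at 76.4, 67.6 and 59.6 CPM at 35 μM, at 61.4, 43 and 57.3 CPM at 45 μM and at 58.8, 52.7 and 41.2 CPM at 55 μM. Every embryo at 25 μM and above was below every control. The slope was -0.29 (joint adjusted p = 0.000235, edgeR) and -0.24 without embryo 2 at 10 μM (0.0147). COL9A1, type IX collagen, went from 91.7, 59.2 and 59.9 CPM at 10 μM to 37.3, 43.8 and 34.5 CPM at 55 μM (slope -0.24, joint adjusted p = 0.00347). Its slope was -0.198 without embryo 2 at 10 μM, and it was then not called (joint adjusted p = 0.12, edgeR). In the list for extracellular matrix and fin, 8 of 41 genes fell in Disperse Red 9 at an unadjusted p under 0.05, or 19.5%, beside 3.08% of all genes.

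**Figure D3:**
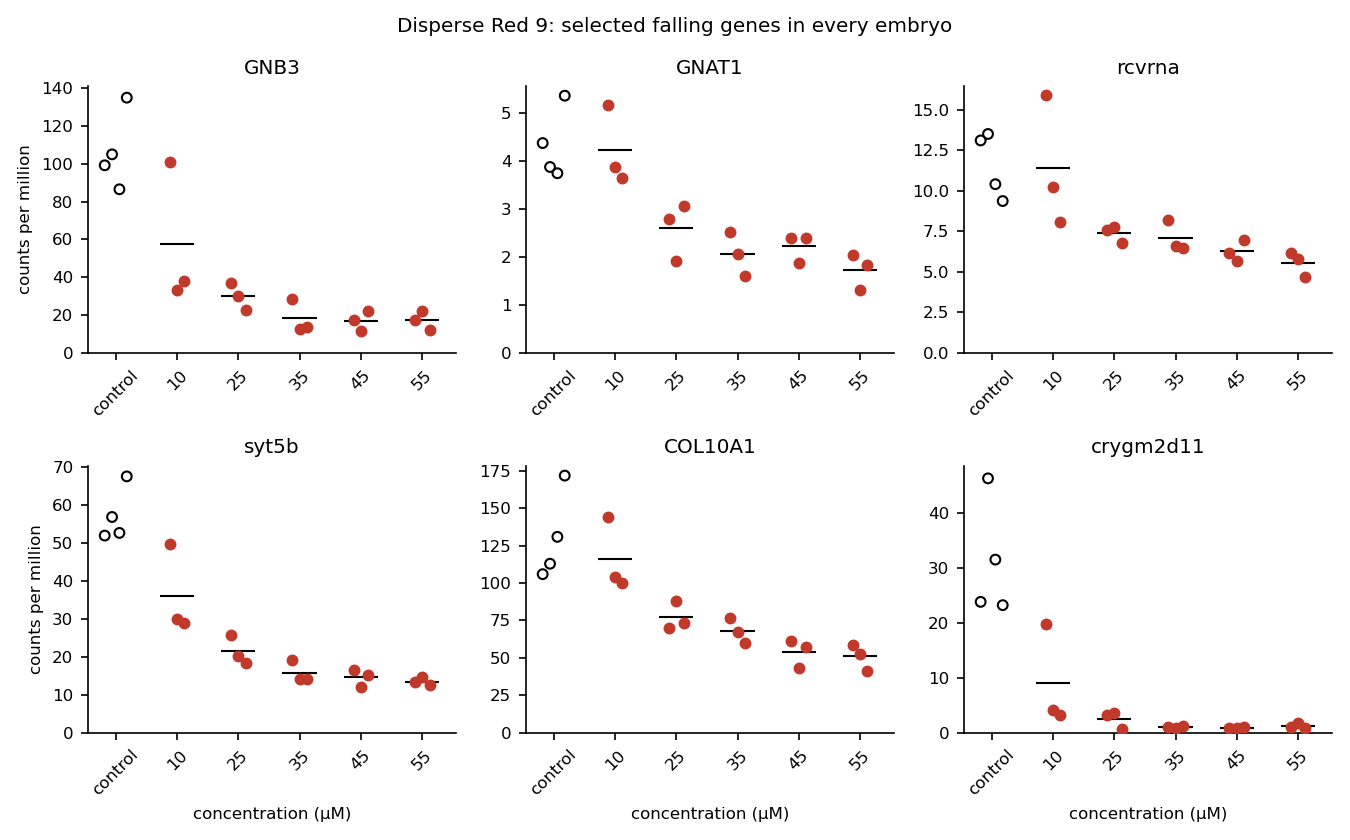
GNB3, GNAT1, rcvrna, syt5b, COL10A1 and crygm2d11 in CPM on linear axes from 0 against the nominal concentration of Disperse Red 9 in μM, where filled points are exposed embryos, open points are controls and bars are means of the exposed embryos. The highest embryo at 10 μM is embryo 2 in all 6 panels, and syt5b goes from 51.9 to 67.5 CPM in the controls to 12.4 to 14.6 CPM at 55 μM.

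The retina and photoreceptor list was described in all its 38 measured genes, since the examples above were chosen for their values. In Disperse Red 9 the slope was negative in 33 and positive in 5. At an unadjusted p under 0.05, 16 genes fell (42.1%, beside 3.08% of all genes) and 0 rose, and 4 were called in the joint edgeR fit. The median slope was -0.162, and that of all genes was -0.006. Without embryo 2 at 10 μM the median was -0.1, and 12 genes (31.6%) fell at that threshold beside 2.08% of all genes. The mean log2 CPM of the list was 2.8 in the controls, 2.62 at 10 μM, 2.35 at 25 μM, 2.21 at 35 μM, 2.12 at 45 μM and 2.08 at 55 μM. The median slope was negative under all 13 alternatives tried, and with the second index as a term, where it was -0.151, no member was called. The summed level of the photoreceptor markers was 4.38 to 15.9 CPM in Disperse Red 9, 4.79 to 8.75 CPM in Disperse Blue 14 and 4.62 to 7.71 CPM in Solvent Red 169, and 1 of the 5 marker genes was at 0. In Disperse Red 9 this sum was 6.11 to 8.3 CPM at 10 μM and 5.44 to 6.89 CPM at 55 μM, so these ranges overlapped. The list's median slope was 0.011 in Disperse Blue 14 and 0.032 in Solvent Red 169.

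Genes of interferon and immune defence were among the 23 rising ones in Disperse Red 9. DHX58, a sensor of viral RNA, was at 0.177 ± 0.182 CPM at 10 μM and 0.802 ± 0.728 CPM at 55 μM (SD, n = 3), with a slope of 0.61 (joint adjusted p = 0.0144, edgeR). The interferon-induced GTPase gene mxf was at 0.0886 ± 0.0836 CPM at 10 μM and 1.18 ± 0.92 CPM at 55 μM, with a slope of 1.15 (joint adjusted p = 0.0255), and was at 0 in 3 of the embryos at 10 to 35 μM. MPEG1, a perforin of macrophages, had a slope of 0.25 (joint adjusted p = 0.0498), and the chemokine ccl34a.4 one of 0.35 (0.0403). Without embryo 2 at 10 μM none of these genes was called in the joint edgeR fit. The slopes were then 0.555 for DHX58 and 1.28 for mxf (joint adjusted p = 0.171 and 0.0673). The spread between embryos of a concentration was large in these genes. The median slope of the interferon list (17 genes) was 0.149 in Disperse Red 9, and 5 of its genes rose and 1 fell at an unadjusted p under 0.05 (29.4% and 5.88%, beside 2.57% and 3.08% of all genes). Over the whole series the median change of the list was 0.595 on the log2 scale, and 0.341 without embryo 2 at 45 μM. At an unadjusted p under 0.05, 4 genes of this list rose in Disperse Blue 14 and 0 fell (23.5% rising, beside 3.87% of all genes). In Solvent Red 169, 1 rose and 1 fell (5.88% each, beside 3.52% and 4.57% of all genes). The median slope was 0.041 in Disperse Blue 14 and 0.007 in Solvent Red 169. The inflammation list (32 genes) had medians of 0.089, 0.047 and -0.008 in the same order.

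No trend was shared by the 3 dyes. The edgeR test found 0 genes with the same sign and an unadjusted p under 0.05 in all 3, with or without the test of the mean slope. That test by itself called 1 gene, CYP1A1, and 1287 genes (7.1%) had an unadjusted p under 0.05. DESeq2 and limma also gave 0 shared genes. Disperse Blue 14 had 0 called genes in its own fit, with 1028 (5.67%) at an unadjusted p under 0.05 and a lowest adjusted p of 0.536. At that threshold in both dyes, 52 genes (0.287%) had the same sign in Disperse Blue 14 and Disperse Red 9 and 19 (0.105%) the opposite sign. For Disperse Blue 14 and Solvent Red 169 the numbers were 43 (0.237%) and 23 (0.127%), and for Disperse Red 9 and Solvent Red 169 they were 20 (0.11%) and 56 (0.309%).

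Examples that leaned the same way in Disperse Blue 14 and Disperse Red 9, chosen after their values were seen, were psip1b, irf1b and CYP8B1, and none passed the adjustment. The chromatin protein gene psip1b was at 211 to 225 CPM at 133 μM and at 309 to 361 CPM at 314 μM Disperse Blue 14 (slope 0.15, adjusted p = 0.795, edgeR), with controls at 195 to 226 CPM. In Disperse Red 9 psip1b was at 307 to 345 CPM at 10 μM and at 399 to 408 CPM at 55 μM (slope 0.11), with controls at 192 to 218 CPM. The interferon regulatory factor gene irf1b was at 3.12 ± 0.79 CPM at 133 μM and 6.3 ± 1.59 CPM at 314 μM Disperse Blue 14 (SD, n = 3), with slopes of 0.23 in this dye and 0.52 in Disperse Red 9. CYP8B1 (ENSDARG00000053068), a sterol hydroxylase of bile acid synthesis, was at 2.31 to 3.3 CPM at 133 μM and 1.1 to 1.4 CPM at 314 μM Disperse Blue 14, with slopes of -0.26 in this dye and -0.29 in Disperse Red 9.

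No gene met the rule for opposite trends, which asked for a called slope difference, opposite signs and an unadjusted p under 0.05 in each of the 2 dyes. The edgeR test of slope differences between Disperse Red 9 and Solvent Red 169 called 1 gene, syt5b, or 0.00552%, with 1978 genes (10.9%) at an unadjusted p under 0.05. The slope of syt5b was 0.42 lower in Disperse Red 9 (95% interval of the difference -0.56 to -0.27, adjusted p = 0.0207), and the adjusted p was 0.131 without embryo 2 at 10 μM. For Disperse Blue 14 and Disperse Red 9 the test called 0 genes, with 1052 (5.8%) at an unadjusted p under 0.05. Of the 42 genes that fell with Disperse Red 9 in the joint fit, 33 had a positive slope in Solvent Red 169 and 37 a negative one in Disperse Blue 14. Over all 18127 genes tested, 9738 had a positive slope in Solvent Red 169 and 8853 a negative one in Disperse Blue 14. Over the same genes the slopes of Disperse Red 9 had a Pearson correlation of -0.255 with those of Solvent Red 169. With those of Disperse Blue 14 it was 0.0735. The negative correlation with Solvent Red 169 over all genes had the direction of the 33 genes. In Disperse Blue 14 more of all genes had a positive slope (9274) than a negative one. Whether these leans are particular to the 42, which were picked for their fall in Disperse Red 9, was not tested. Among the 42 genes, rs1a had a slope of 0.19 in Solvent Red 169 and one lower by 0.77 in Disperse Red 9 (adjusted p of the difference = 0.0628, edgeR). The slope of arl13a, of the family of small GTPases of cilia, was 0.13 in Solvent Red 169 and lower by 0.52 in Disperse Red 9 (adjusted p of the difference = 0.0628).

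Lists of ribosomal, mitochondrial and lens genes had median slopes whose size depended on single embryos. For the ribosomal and mitochondrial lists the sign did so too in some dyes. The lens list kept its sign in all 3 dyes with each of the 15 exposed embryos left out. The median slope of 67 cytosolic ribosomal protein genes was -0.130 in Disperse Blue 14, -0.182 in Disperse Red 9 and 0.074 in Solvent Red 169, and 65, 66 and 0 of them were negative. For 73 genes of oxidative phosphorylation the medians were -0.085, -0.146 and 0.061, and for 30 lens genes -0.097, -0.192 and 0.044. At most 4 members of each of these lists had an unadjusted p under 0.05 in any dye, and 0 were called by edgeR. In the same order of lists, 2.99%, 1.37% and 3.33% fell in Disperse Blue 14, beside 1.8% of all genes. In Disperse Red 9, 0%, 5.48% and 3.33% fell, beside 3.08%. In Solvent Red 169, 2.99%, 4.11% and 0% rose, beside 3.52%. The shares in the other direction were 0%. With the second index as a term the medians in Disperse Red 9 turned positive, to 0.283 for the ribosomal, 0.155 for the oxidative phosphorylation and 0.155 for the lens genes. Without the highest concentration those in Disperse Blue 14 were positive, at 0.103, 0.08 and 0.048. Without embryo 3 at 25 μM, the library of lowest normalization factor (0.796), the median change over the Disperse Red 9 series on the log2 scale went from -0.729 to 0.157 for the ribosomal, from -0.584 to -0.086 for the oxidative phosphorylation and from -0.768 to -0.376 for the lens genes. Without embryo 4 at 50 μM, that over the Solvent Red 169 series went from 0.295 to -0.174 for the ribosomal, from 0.243 to -0.033 for the oxidative phosphorylation and from 0.176 to 0.064 for the lens genes. Without embryo 3 at 314 μM, that over the Disperse Blue 14 series went from -0.52 to -0.147, from -0.34 to -0.115 and from -0.388 to -0.15 in the same order.

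The p53 targets (30 genes) had medians of 0.043, 0.054 and 0.054, with 5, 5 and 3 genes rising at an unadjusted p under 0.05 (16.7%, 16.7% and 10%, beside 3.87%, 2.57% and 3.52% of all genes). With controls as a step below the lowest concentration the median in Solvent Red 169 was -0.038. In the same setting it was 0.115 in Disperse Blue 14 and 0.067 in Disperse Red 9. There edgeR called 5 of the 30 genes as rising in Disperse Blue 14 (beside 0.392% of all genes) and 7 in Disperse Red 9 (1.86%). In these 2 dyes 0 were called as falling. Over the whole series the median change of the p53 list went from 0.173 to 0.099 in Disperse Blue 14 without embryo 2 at 314 μM, and from 0.216 to 0.129 in Disperse Red 9 without embryo 2 at 45 μM. Another list held transporters and phase II enzymes (58 genes), which conjugate and export foreign compounds. Of these, 6, 1 and 7 genes rose at an unadjusted p under 0.05 (10.3%, 1.72% and 12.1%, beside 3.87%, 2.57% and 3.52% of all genes). In Disperse Red 9, 6.9% of these genes fell at that threshold, beside 3.08% of all genes.

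**Figure D4:**
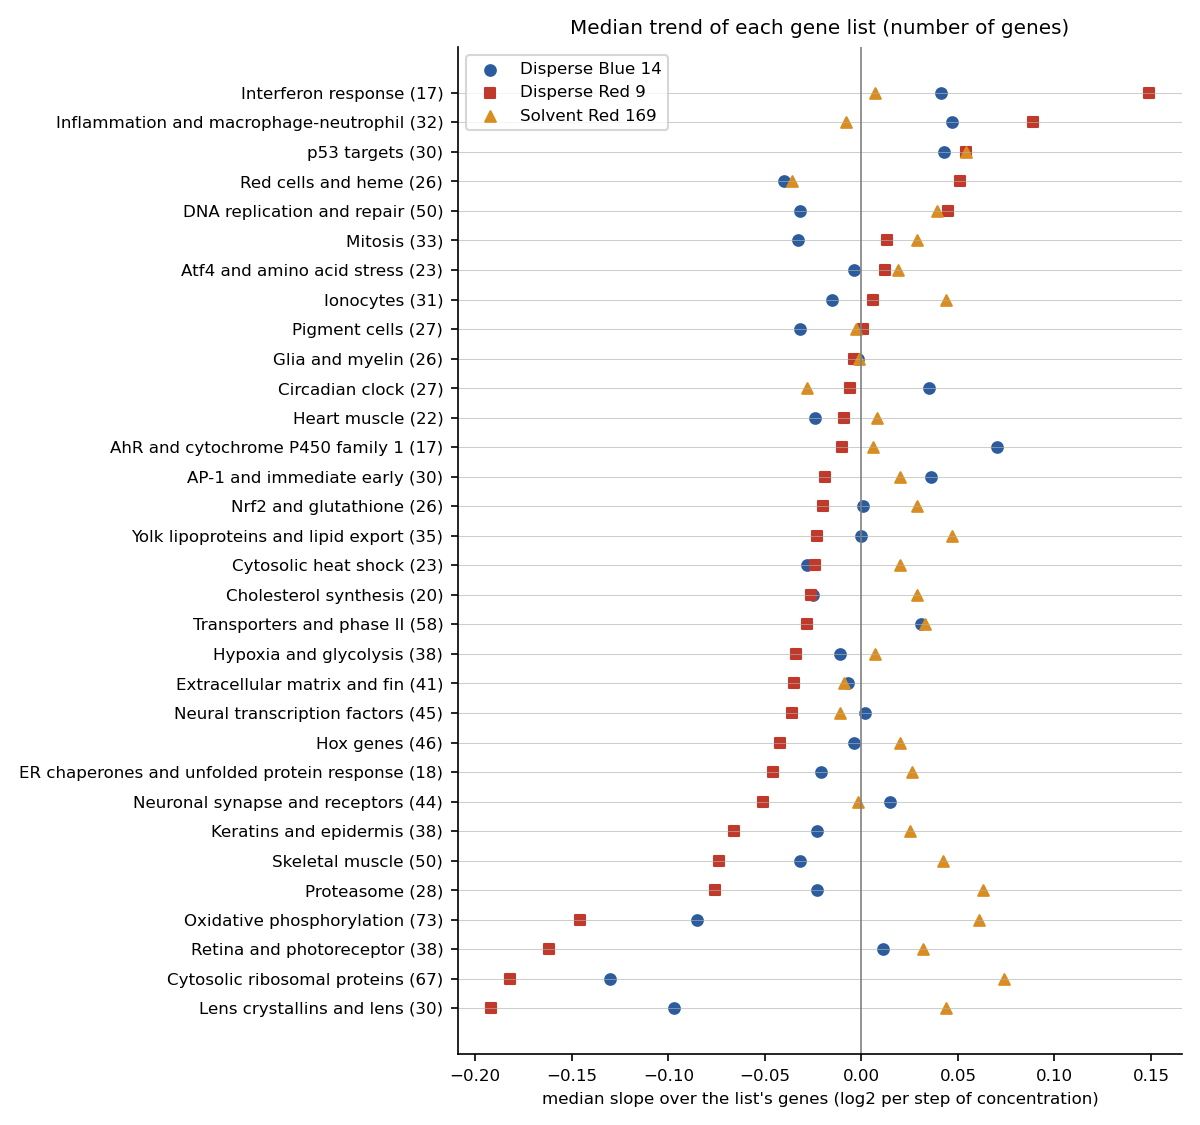
Median slope in log2 per step of concentration (horizontal) over the genes of each of 32 lists (vertical, number of genes in parentheses) for Disperse Blue 14 (circles), Disperse Red 9 (squares) and Solvent Red 169 (triangles). The lowest medians are those of the lens (-0.192) and ribosomal (-0.182) genes in Disperse Red 9, and the highest is that of the interferon genes in Disperse Red 9 (0.149).

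The number of genes with a trend in Disperse Blue 14 and Solvent Red 169 turned on the embryos at the highest concentration. Without that concentration, edgeR called 520 genes in Solvent Red 169 (2.87%; 189 rising and 331 falling) and 47 in Disperse Blue 14 (0.259%; 1 rising and 46 falling). With the second index of the barcode as a term it called 2264 genes in Solvent Red 169 (12.5%; 1253 rising and 1011 falling) and 226 in Disperse Blue 14 (1.25%; 18 rising and 208 falling). Both settings called 336 of the same genes in Solvent Red 169 and 39 in Disperse Blue 14. Most embryos at the highest concentration of these dyes carried another index, so both settings discount the same embryos. This overlap is therefore not a separate check. Disperse Red 9 had 0 called genes under either setting. All 520 of the genes called in Solvent Red 169 without its highest concentration had the same sign with it, and 216 of them had an unadjusted p under 0.05 there. Of the 47 genes of Disperse Blue 14, 27 had the same sign with it, and 1 had an unadjusted p under 0.05.

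The values of her4.2, a target of Notch signalling in neural progenitors that was chosen after its values were seen, show this split. In Solvent Red 169 it was at 44.6, 102 and 92.5 CPM at 1 μM and at 111, 80.4 and 80.3 CPM at 5 μM. It was at 46.8, 37.2 and 34.6 CPM at 11.2 μM and at 28, 29.3 and 28.9 CPM at 35.6 μM. At 50 μM the embryo with the common second index held 35 CPM, and those with the other index held 94.9 and 60.9 CPM. In Disperse Blue 14 her4.2 was at 51.9, 88.6 and 87.2 CPM at 133 μM and at 87.7, 89.6 and 66.6 CPM at 171 μM. It was at 43.4, 35 and 27 CPM at 209 μM and at 29.5, 28.6 and 26.9 CPM at 261.5 μM. At 314 μM the embryo with the common index held 28.6 CPM, and those with the other index held 143 and 109 CPM. In both dyes the embryos at the top that held the levels of the low concentrations were those of another index, and the embryo of another index at the lowest concentration was the lowest of its group, with 44.6 and 51.9 CPM.

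At the highest concentration the homeobox gene PROX1 and the kinase subunit gene csnk2a1 also split by index. There PROX1 had low and csnk2a1 high values in the common index. At 314 μM Disperse Blue 14, PROX1 was at 28.4 CPM in the embryo with the common index and at 70.6 and 62.2 CPM in the others. At 50 μM Solvent Red 169, PROX1 was at 30.4 CPM in the embryo with the common index and at 69 and 56 CPM in the others. For csnk2a1 the same embryos held 92.5, 25.1 and 36.9 CPM in Disperse Blue 14 and 102, 36.6 and 52 CPM in Solvent Red 169. The index thus moved with these values within the top concentration, and its part in the trends was not tested beyond the fit with the index as a term.

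Shared trends appeared only under settings that changed the samples or the terms. Without the highest concentration 5 genes met the rule in all 3 dyes, of which the collagen gene COL8A1, SEPTIN8, the neural transcription factor gene BHLHE23 and GYG1, the primer of glycogen synthesis, fell and the kinetochore gene knl1 rose. With the second index as a term 54 genes met it, 48 falling and 6 rising, and 1 of these was among the 5. Of the 54, 35 had the same sign in all 3 dyes in the fits without the term.

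**Figure D5:**
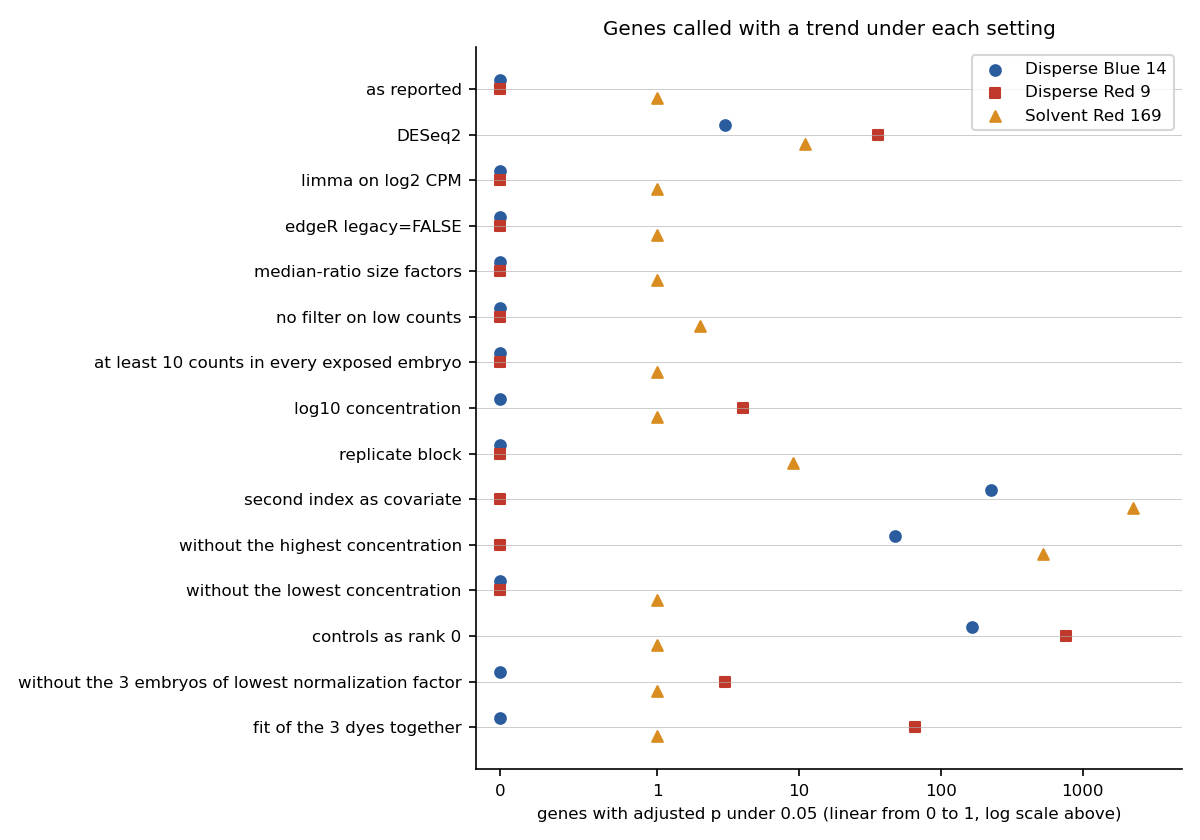
Number of genes called with a trend at an adjusted p under 0.05 (horizontal, linear from 0 to 1 and log above) under each setting (vertical) for Disperse Blue 14 (circles), Disperse Red 9 (squares) and Solvent Red 169 (triangles). The counts as reported are 0, 0 and 1, and those of Solvent Red 169 reach 520 without the highest concentration and 2264 with the second index as a term.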

How the data were processed

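Per the labels, the authors trimmed reads with Trim Galore 0.6.5, quantified them with Salmon 1.1.0 against GRCz11 transcripts and summed them per gene. The deposited table holds estimated counts for 19913 genes, 48 of them with a total of 0, and 62.2% of the values were whole. They were rounded to whole numbers. The log2 CPM tables that the authors also deposited carry no gene identifiers and were not used. Salmon divides reads between close paralogues by a model, so values of such genes are less certain.

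In R 4.3.3, edgeR 4.0.16 gave TMM factors over the 57 embryos, the filter on low counts (filterByExpr over the exposed groups, 18127 genes) and the quasi-likelihood F test (legacy=TRUE) of a linear term in concentration rank per dye. Slope differences and the mean slope came from a joint fit of the 45 exposed embryos. A gene was called at a Benjamini-Hochberg adjusted p under 0.05. Joint adjusted p-values are those of a dye's slope in that joint edgeR fit. The fits were tested on simulated data. Embryos are separate animals, but their clutches are not given in the sources used here, so p-values measure the spread between these embryos. A table of names gave symbols, often in the human style, for 19164 genes and none for 749. Sequences and coordinates are not used here.

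The rule for named genes was the lowest p-values among called genes, which left CYP1A1. The genes described from the AhR list are only a part of its 17 measured genes. All genes outside that list were described after their values were seen. The dyes, the 32 gene lists and the tests were chosen with earlier results of these data known. Alternatives used DESeq2 1.42.0, limma 3.58.1, other filters, scalings and terms, and each exposed embryo left out.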

Additional observations from a re-analysis of the deposited data

Results flagged for a closer look

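The slope of CYP1A1 per step of concentration differed between Disperse Blue 14 and Solvent Red 169 by -0.67, and that of syt5b between Disperse Red 9 and Solvent Red 169 by -0.42, both by edgeR's test of the difference (adjusted p = 0.0207 for each).

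Among 99 control groups of 4 embryos (33 genes in 3 dyes), 12 had an embryo far from the other 3 by Dixon's test, which by chance marks about 5% of groups. Control embryo 1 of Disperse Blue 14 accounted for 7 of them. It held 1350 CPM of CYP1A1 (others 4.62 to 6.5), 60.6 of CYP1B1 (1.98 to 5.45), 547 of cyp1c1 (8.48 to 24.8) and 86.1 of cyp1c2 (5.53 to 6.52). It also held 12.5 CPM of FOXQ1 (1.68 to 2.72), 8.37 of irf1b (0.523 to 0.991) and 2.84 of mxf (0.0275 to 0.142). The 7 genes include 5 of the AhR list and 2 of interferon signalling. The values of this embryo lay above those of all 15 exposed embryos of Disperse Blue 14 in all 7 genes.

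The other flags were single genes. Disperse Red 9 control 4 held 13.9 CPM of foxq1b (others 8.63 to 9.13), and control 3 held 2.74 CPM of prph2lb (1.83 to 1.88) and 1.8 CPM of npffr1l1 (2.4 to 2.5). Solvent Red 169 control 2 held 20.8 CPM of APOBEC2 (9.75 to 11.2). Disperse Blue 14 control 4 held 10.8 CPM of TGFBR3 (6.19 to 6.61). No cause of these values was tested.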

How the results depend on the processing

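In the counts of trends of Disperse Blue 14, Disperse Red 9 and Solvent Red 169, in this order, 0, 0 and 1 became 3, 36 and 11 with DESeq2. Solvent Red 169 had 2 with no filter on low counts, Disperse Red 9 had 4 per log10 concentration and 65 in the fit of the 3 dyes together, and limma and median-ratio size factors moved none. The second index as a term gave 226, 0 and 2264, and leaving out the highest concentration gave 47, 0 and 520. Controls as rank 0 gave 165, 762 and 1, and the slope of CYP1A1 in Solvent Red 169 was then -0.29. Without the 3 embryos of lowest normalization factor, chosen after seeing the data, Disperse Red 9 had 3.

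Shared trends, 0 as reported, were 54 with the second index, 5 without the highest concentration, 21 with controls as rank 0, 1 with the replicate block and 1 without the 3 embryos of lowest normalization factor. Opposite trends, 0 as reported, were 14 with DESeq2, 2 with legacy=FALSE, 3 with at least 10 counts in every exposed embryo, 2 per log10 concentration, 3 with the replicate block, 585 with controls as rank 0 and 1 without the 3 embryos. Slope differences of Disperse Blue 14 from Disperse Red 9, 0 as reported, were 3 with DESeq2, 1 with the replicate block and 200 with controls. Those of Disperse Blue 14 from Solvent Red 169, 1 as reported, were 4 with DESeq2, 394 with controls, and 0 with the second index, without the highest and without the lowest concentration. Those of Disperse Red 9 from Solvent Red 169, 1 as reported, were 30 with DESeq2, 6 with legacy=FALSE, 5 with the stricter filter, 28 per log10 concentration, 5 with the replicate block, 1116 with controls and 6 without the 3 embryos. They were 0 with the second index, without the highest or the lowest concentration and over the overlapping concentrations. The cause of these changes was not tested.

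The replicate block gave Solvent Red 169 9 called trends. Same-numbered embryos deviated together with median correlations of -0.04, 0.12 and 0.09 in Disperse Blue 14, Disperse Red 9 and Solvent Red 169 (range -0.58 to 0.67), so the numbers were not taken as pairs. With each of 45 embryos left out, trends ranged from 0 to 1 in Disperse Blue 14, 0 to 3 in Disperse Red 9 and 1 to 172 in Solvent Red 169 (172 without embryo 3 at 50 μM). Shared trends ranged from 0 to 1, opposite trends from 0 to 4, and slope differences from 0 to 0, 0 to 1 and 0 to 7 in the order above.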
